A study of Mus musculus with 6 samples.

Results

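The nuclear-encoded genes of the mitochondrial respiratory chain were examined in the blood of mice housed in an enriched environment (EE) or a standard environment (SE). Genes were taken by name: those whose symbol starts with Nduf (complex I), Uqcr (complex III), Atp5 (ATP synthase, complex V) or Cox followed by a digit from 4 to 8 (complex IV, cytochrome c oxidase), and the Sdh genes from Sdha to Sdhd (complex II), with pseudogenes left out. This gave 87 genes of the 22180 that have a probe set of their own, of which 32 belong to complex I, 4 to complex II, 7 to complex III, 18 to complex IV and 17 to complex V, and 9 are assembly or supercomplex factors. Ndufa4, which carries a complex I name, was placed in complex IV, where it is now known to sit. Where a gene had several probe sets, the one with the highest mean was used. This concerned 9 genes. Probe set IDs run largely in the order of the chromosomes. By that order the sets used for Atp5h, Atp5g2 and Cox5b fall among genes of other chromosomes than their own. Their values may therefore come from another locus.

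Whole blood was drawn by cardiac puncture from 6 outbred CD1 males aged 9 weeks, 3 EE and 3 SE, after 2 weeks in either enclosure, and the RNA of each mouse was put on its own Affymetrix whole-transcript array. EE mice had a bigger cage than SE mice, fitted out for running, hiding and nesting, and no inflammation had been induced in either group. The mice had been housed in groups, and which of the arrayed mice shared an enclosure is not given in the sources used here. The study took a hypothesis-generating look at which blood transcripts differ with housing. The chip is given as Mouse Gene 1.0 ST in the methods, but the deposited probe set IDs match the annotation of another version, the 2.0 ST.

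The respiratory chain is built in the inner mitochondrial membrane. Complexes I and II take electrons from NADH and succinate, complex III passes them to cytochrome c, complex IV hands them to oxygen, and complexes I, III and IV pump the protons that ATP synthase uses to make ATP. Mitochondrial DNA encodes a small set of the subunits, and the rest are nuclear genes whose proteins are imported. Core subunits carry the catalytic and redox centres, whereas accessory subunits stabilize and tune the complexes. In blood, reticulocytes still hold mitochondria and mature red cells have none, neutrophils rely largely on glycolysis, and lymphocytes, monocytes and platelets respire.

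Levels are given on the authors' log2 scale, in the order of mice 1, 2 and 3 of a group. Log2 fold changes are EE means minus SE means, so a negative value is lower in EE. A probe set was tested when its mean over the 6 mice reached 100 on the linear scale (6.64 on the log2 scale), which 41 of the 87 genes did and 46 did not. The p-values are from limma over all 6154 probe sets tested, and adjusted values are over the same probe sets. The fit with no minimum, used for the genes below it, covered 25341 probe sets.

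The blood of the 6 mice carried the markers of its cells. Of 14 B cell, 16 T cell and 15 platelet markers listed, 12 of each had a probe set of their own. All of these were past the minimum, and of the 16 heart and muscle markers Acta1 alone passed. EE mouse 3 stood apart from the rest, with a mean correlation of 0.932 to the other arrays against 0.956 to 0.965 for the others, and 50.1% of all probe sets tested were lowest in it. Markers of some blood cells also differed between groups. Of 14 red cell markers tested 10 were lower in EE at an unadjusted p under 0.05, against 3.14% of all probe sets. The rest were Tfrc (log2 fold change -0.06) and Tal1 (-0.04), near 0, and Ermap (0.06) and Gypc (0.27), on the higher side. The summed linear level of the 14 was 6414 to 8722 in EE mice and 10029 to 12951 in SE mice. Of 12 neutrophil markers 9 were higher in EE at that threshold, against 1.46% of all probe sets. The summed level of the 12 was 7107 to 8600 in EE mice and 4593 to 5817 in SE mice. The red cell factors Gata1 and Klf1 and the neutrophil granule genes Camp, Ltf and Ngp were under the minimum. In whole blood, fewer cells of a type and less RNA per cell cannot be told apart.

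Promoters are shown for 6 members that the results below turn on, namely those lower at an unadjusted p under 0.05 or with every EE mouse below every SE mouse (Atp5h, Atp5b and Ndufv1), and Cox6a1, Sdha and Uqcrh, picked after the motif search because they hold matches. The 250 bases before the gene start (RefSeq, GRCm38.p6) were searched on both strands for CGCANGCGC, the core of the NRF1 site, CCGGAAGT, an ETS site of the kind bound by NRF-2 (GABP), and AAGATGGCG, the core of the YY1 site. These are the factors best known for driving respiratory chain genes. Capitals mark the matches, and sequences are written 5′ to 3′ along the gene.
Atp5h, chr11:115419920-115420169, minus strand: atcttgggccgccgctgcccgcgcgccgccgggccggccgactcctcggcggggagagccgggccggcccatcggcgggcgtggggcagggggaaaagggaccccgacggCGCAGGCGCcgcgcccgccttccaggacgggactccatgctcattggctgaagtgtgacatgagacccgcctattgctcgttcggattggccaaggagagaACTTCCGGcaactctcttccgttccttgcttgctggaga
Cox6a1, chr5:115348959-115349208, minus strand: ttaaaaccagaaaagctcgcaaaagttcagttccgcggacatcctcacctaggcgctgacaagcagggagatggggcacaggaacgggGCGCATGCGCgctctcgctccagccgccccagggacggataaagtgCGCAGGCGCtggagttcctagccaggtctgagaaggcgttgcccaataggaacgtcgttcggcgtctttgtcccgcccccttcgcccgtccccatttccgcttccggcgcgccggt
Sdha, chr13:74350241-74350490, minus strand: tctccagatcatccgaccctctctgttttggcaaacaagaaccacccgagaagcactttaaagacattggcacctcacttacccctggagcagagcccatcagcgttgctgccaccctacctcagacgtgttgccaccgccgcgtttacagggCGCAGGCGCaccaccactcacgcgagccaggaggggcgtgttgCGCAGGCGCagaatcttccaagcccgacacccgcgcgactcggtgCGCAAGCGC
Uqcrh, chr4:116075071-116075320, minus strand: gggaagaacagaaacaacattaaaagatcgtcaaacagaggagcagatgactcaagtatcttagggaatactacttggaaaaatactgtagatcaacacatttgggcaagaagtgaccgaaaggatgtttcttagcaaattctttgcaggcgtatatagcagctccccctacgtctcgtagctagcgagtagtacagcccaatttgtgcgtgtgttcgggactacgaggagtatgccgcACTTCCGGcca
Atp5b, chr10:128083057-128083306, plus strand: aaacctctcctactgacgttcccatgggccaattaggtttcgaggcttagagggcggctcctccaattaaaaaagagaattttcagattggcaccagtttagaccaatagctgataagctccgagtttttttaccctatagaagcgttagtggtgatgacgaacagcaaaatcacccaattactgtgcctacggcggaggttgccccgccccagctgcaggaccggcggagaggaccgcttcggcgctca
Ndufv1, chr19:4012756-4013005, minus strand: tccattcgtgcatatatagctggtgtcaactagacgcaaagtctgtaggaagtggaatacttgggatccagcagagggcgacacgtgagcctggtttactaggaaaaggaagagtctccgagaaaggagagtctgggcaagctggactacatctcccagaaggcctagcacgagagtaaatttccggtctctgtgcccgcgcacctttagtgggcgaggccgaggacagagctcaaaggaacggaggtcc

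Atp5h held an NRF1 match from base -140 to -132 before its start and an ETS match, on the other strand, from -39 to -32. Cox6a1 and Sdha held 3 NRF1 matches each, a pair of those in Cox6a1 being the overlapping readings of a palindromic stretch on the 2 strands. The last NRF1 match of Sdha ran up to the gene start, and Uqcrh held an ETS match from -11 to -4. Neither Atp5b nor Ndufv1 held any of the 3 motifs in this window. Over the 72 members with a promoter in the table (77 windows), 22.1% of windows held the NRF1 core, against 5.19% of all 32851 windows and 7.09% of those of protein-coding genes. The ETS site was in 3.9% of the members' windows (2.88% of all, 3.79% of protein-coding) and the YY1 core in 1.3% (0.606% of all, 0.72% of protein-coding). By complex the NRF1 core was in 7 of 31 windows of complex I, 2 of 3 of complex II, 0 of 4 of complex III, 1 of 9 of complex IV and 6 of 18 of complex V, tissue isoforms left out. A match is a description of the letters, not a site in use. Of the genes of these factors tested in blood none passed the unadjusted threshold, with a log2 fold change of 0.06 for Nrf1 (unadjusted p = 0.657) and -0.08 for Gabpb1, the beta subunit of NRF-2 (unadjusted p = 0.636), and -0.16 for Yy1 (unadjusted p = 0.343). Gabpa, the DNA-binding subunit of NRF-2, was just under the minimum, at -0.32 with EE mouse 3 lowest and at -0.05 without that mouse.

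Little separated the EE and SE mice in these transcripts. Of the 41 genes tested, 1 (Atp5h) was lower in EE at an unadjusted p under 0.05, against 3.14% of all probe sets tested, and 0 were higher, against 1.46% of all. None passed the study's thresholds of an unadjusted p under 0.05 with a fold above 2 or under 0.5, which 0.195% of all probe sets did, and the lowest adjusted p was 0.993. The median log2 fold change was -0.03 over the 41 genes and -0.03 over all probe sets tested. Of the 41 genes 23 lay below 0 (56.1%), as did 58.2% of all probe sets.

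All 41 log2 fold changes were smaller than 0.5 in size, and 20 were smaller than 0.1. The 95% interval lay within ±1, a fold of 2 either way, for 38 of the 41. The median standard error of a log2 fold change was 0.162. The groups did not overlap for Atp5b and Ndufv1, in which every EE mouse was below every SE mouse (5.75% of all probe sets). For 0 of the 41 was every EE mouse above every SE mouse (3.92% of all). Among the genes under the minimum, every EE mouse was above every SE mouse for Ndufc1, Ndufv3 and Cox7b2. The share of all probe sets under the minimum that did so was not counted, so these genes have nothing to be set against.

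**Figure D1:**
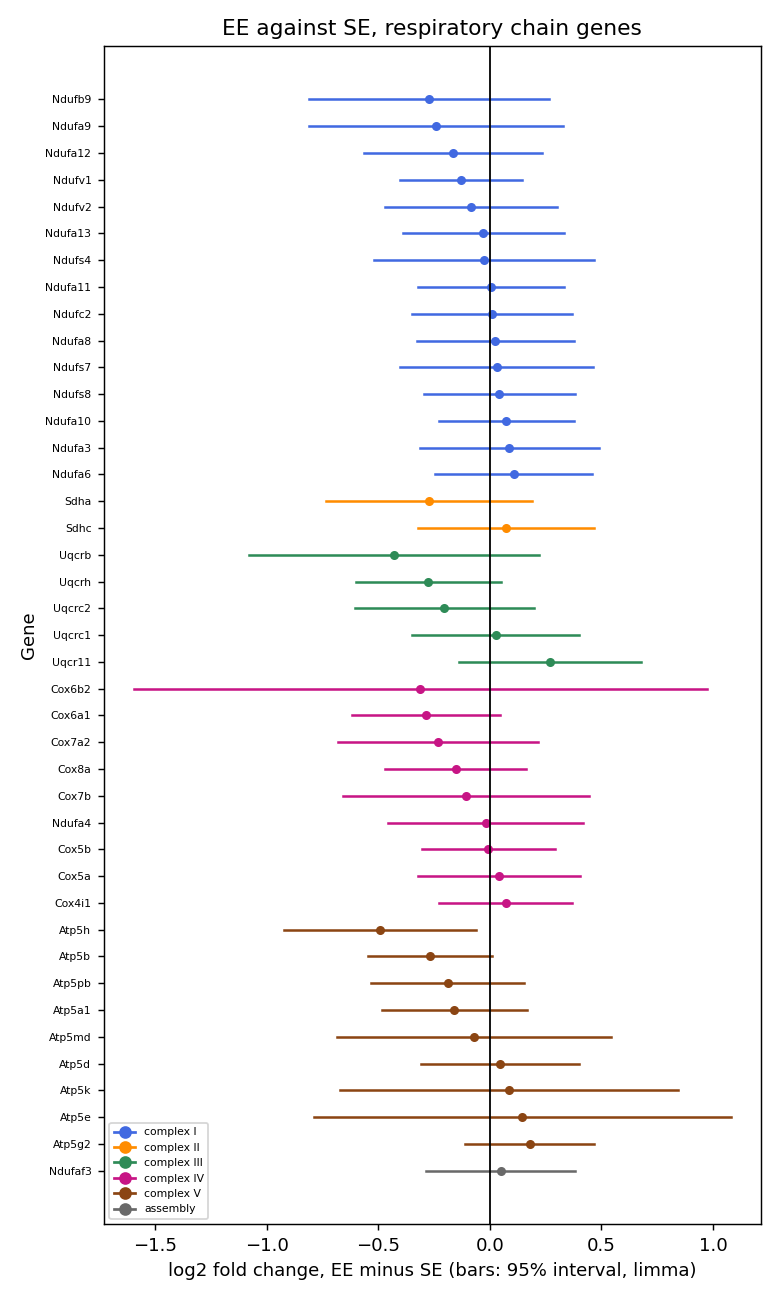
Log2 fold change, EE minus SE, for each of the 41 respiratory chain genes tested, with its 95% interval from limma, coloured by complex (n = 3 mice per group). The interval of Atp5h (-0.92 to -0.06) is the only one that leaves out 0, and the widest is that of Cox6b2 (-1.60 to 0.97).

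ATP synthase held the member with the largest difference. Atp5h encodes subunit d of the peripheral stalk, which keeps the catalytic head from turning with the rotor, and lies at chr11:115415691-115419919. Its log2 value was 10.41, 10.46 and 9.85 in SE mice 1, 2 and 3 and 9.68, 9.86 and 9.71 in EE mice 1, 2 and 3. SE mouse 3 lay with the EE mice, just under EE mouse 2, so the groups overlapped. The log2 fold change was -0.49 with a standard error of 0.185 (fold 0.711, unadjusted p = 0.0293, adjusted p = 0.993). The call was lost on leaving out any of 4 mice, with an unadjusted p of 0.0962 without SE mouse 1, 0.113 without SE mouse 2, 0.0802 without EE mouse 1 and 0.0572 without EE mouse 3. The second Atp5h probe set was under the minimum and had a log2 fold change of -0.23. The ID of the set used (17315713) falls between those of Ndufb9 and Ndufa6 on chromosome 15. That of the second (17271891) follows Atp5g1 on chromosome 11. The values used may thus come from another locus than the gene and promoter given, which was not tested. Most red cell markers were lower in the same mice (summed levels above), and their part in the Atp5h value was not tested.

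Atp5b encodes the catalytic beta subunit, on which ATP is made, and lies at chr10:128083307-128090388. Its log2 value was 12.48, 12.44 and 12.37 with SE housing and 12.11, 12.25 and 12.12 with EE housing. The EE values all lay below the SE values, and the gap was narrow. The log2 fold change was -0.27 with a standard error of 0.12 (unadjusted p = 0.0566), and p was 0.0383 in the fit with no minimum. Atp5a1, the alpha subunit that forms the head with beta, had a log2 fold change of -0.16 (unadjusted p = 0.289) and was lowest in EE mouse 3 at 8.42, with the other mice at 8.74 to 8.83. Atp5pb, subunit b of the stalk beside Atp5h, had -0.19 (unadjusted p = 0.239). These 4 members (Atp5h, Atp5b, Atp5pb and Atp5a1), grouped after their values were seen, lay below 0, as did 58.2% of all probe sets. Of them Atp5h alone passed the unadjusted threshold. Atp5d, the delta subunit of the central stalk, had 0.05 (unadjusted p = 0.771). Of the 4 core subunits tested in the head and central stalk (Atp5a1, Atp5b, Atp5d and Atp5e), 2 lay below 0 and 2 above.

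Subunit c, whose copies form the rotor ring, is made from 3 genes that give the same mature protein. Atp5g2 was the one past the minimum, at a log2 value of 9.81, 9.92 and 9.87 with SE housing and 10.11, 10.11 and 9.91 with EE housing. EE mice 1 and 2 were above every SE mouse, and EE mouse 3 was just under SE mouse 2. The log2 fold change was 0.18 with a standard error of 0.125 (unadjusted p = 0.192). The second Atp5g2 probe set gave 0.17 with every EE mouse above every SE mouse, as in 3.92% of all probe sets. By its ID the set used falls among genes of chromosome 17, whereas Atp5g2 lies on chromosome 15, so it may read another locus. Atp5g1 and Atp5g3 were under the minimum, with log2 fold changes of -0.10 and -0.09.

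Among the remaining members of complex V, the spread between mice of the same group was far wider than any difference between groups. Atp5e, the epsilon subunit of the central stalk, read 9.92, 8.82 and 8.47 with SE housing and 8.91, 8.88 and 9.85 with EE housing. It was high in SE mouse 1 and EE mouse 3 and about a log2 unit lower in the rest, and its second probe set, under the minimum, was likewise highest in EE mouse 3 (7.19) and SE mouse 1 (6.80). Atp5k, subunit e, read 8.41, 7.71 and 7.10 with SE housing and 7.80, 7.50 and 8.19 with EE housing, likewise highest in SE mouse 1 and lowest in SE mouse 3. Subunit e and Atp5md, also called DAPIT, sit at the dimer interface of the enzyme. Atp5md read 10.39, 9.67 and 9.34 with SE housing and 9.92, 9.78 and 9.49 with EE housing, again highest in SE mouse 1 and lowest in SE mouse 3. The log2 fold changes of these genes were 0.15 (unadjusted p = 0.727), 0.09 (unadjusted p = 0.799) and -0.07 (unadjusted p = 0.794), and turned to -0.17, -0.09 and 0.05 without EE mouse 3. The 8 members of complex V under the minimum were Atp5c1, Atp5g1, Atp5g3, Atp5j, Atp5j2, Atp5l, Atp5mpl and Atp5o.

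**Figure D2:**
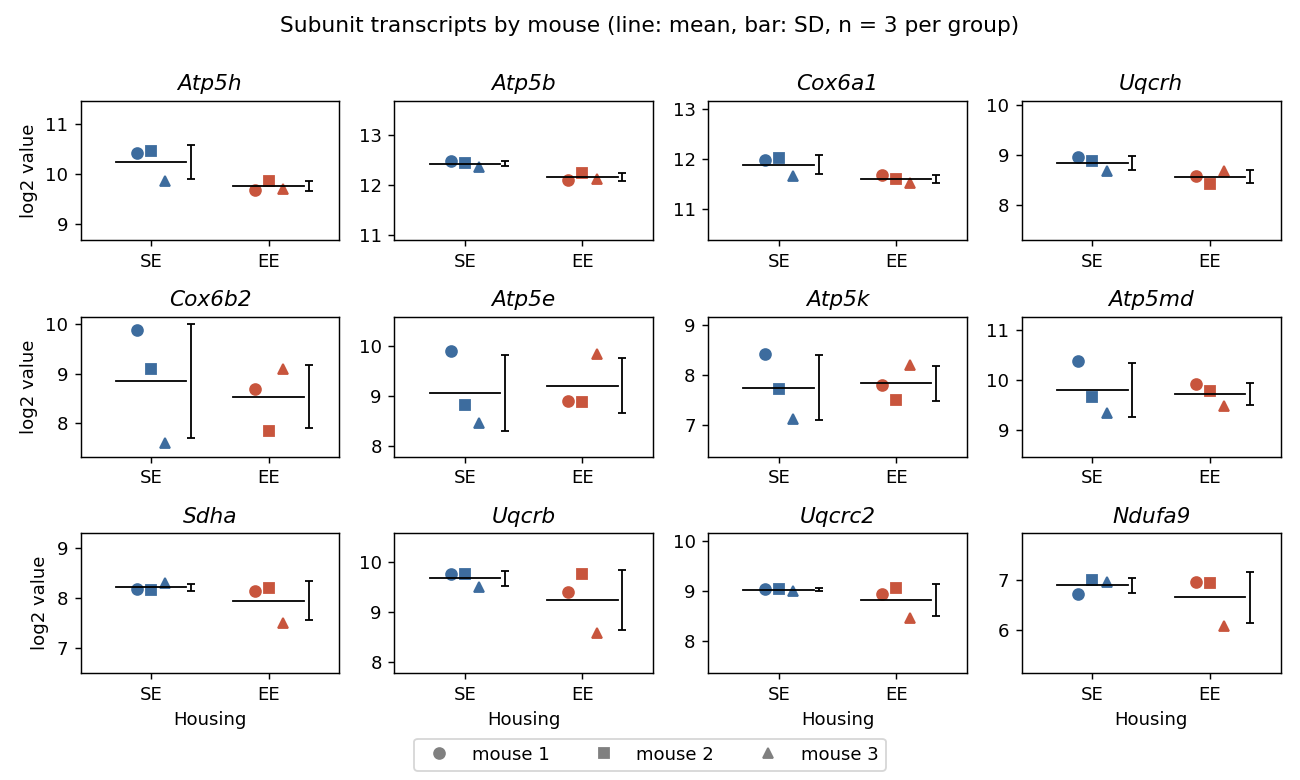
Log2 values (y axis) of 12 subunit genes in each SE (blue) and EE (red) mouse, with the mean as a line and the SD as a bar (n = 3 per group, each panel spanning the same number of log2 units). Atp5b separates the groups narrowly, Cox6b2, Atp5e and Atp5k spread most within the SE group, and Sdha, Uqcrb, Uqcrc2 and Ndufa9 are low in EE mouse 3.

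Complex IV had 9 members past the minimum, and none passed the unadjusted threshold. Cox6a1, the widely expressed form of a regulatory subunit, read 11.98, 12.02 and 11.66 with SE housing and 11.68, 11.61 and 11.52 with EE housing. EE mouse 1 was just above SE mouse 3, so the groups overlapped there alone. Its log2 fold change was -0.29 with a standard error of 0.143 (unadjusted p = 0.0818). Cox7a2 had -0.23 (unadjusted p = 0.266), Cox8a -0.15 (unadjusted p = 0.296) and Cox7b -0.11 (unadjusted p = 0.667). Cox4i1, the form of subunit 4 used in most tissues, had 0.07 (unadjusted p = 0.593), and Cox5a and Cox5b, the nuclear subunits on the matrix side, had 0.04 and -0.01. The median of complex IV was -0.11, with 7 of 9 below 0 (77.8%, against 58.2% of all probe sets). It was -0.17 without EE mouse 3 and turned to 0.05 without SE mouse 1.

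Tissue forms of complex IV subunits were largely under the minimum. Cox6a2, Cox7a1 and Cox8b, the forms of heart and skeletal muscle, had mean log2 values of 6.09 or less in SE mice and 6.14 or less in EE mice. Cox4i2, the lung form, Cox7b2 and Cox8c, forms of the testis, and Ndufa4l2, a paralog of Ndufa4 induced by low oxygen, were also under it. Cox6b2, known as the testis form of subunit 6b, was the exception. Its probe set read 9.87, 9.08 and 7.61 with SE housing and 8.69, 7.85 and 9.09 with EE housing, a range of 2.26 log2 units, the widest of the 41 members. The SE mice alone covered that whole range, and the log2 fold change of -0.31 had a standard error of 0.554 (unadjusted p = 0.589). Cox6b1, its widely expressed partner, was under the minimum at 5.71 to 6.60, and so was Cox7c. Cox7a2l, a supercomplex factor, lay almost exactly at the minimum and just under it, with a log2 fold change of 0.01.

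Complex III had the lowest median of the complexes with more than 2 genes tested, -0.20 over 5 genes. It moved to -0.02 without EE mouse 3. Uqcrh, the hinge protein that helps cytochrome c dock, read 8.97, 8.88 and 8.68 with SE housing and 8.59, 8.43 and 8.69 with EE housing. EE mouse 3 was the highest of the EE mice and just above SE mouse 3. Its log2 fold change was -0.28 with a standard error of 0.14 (unadjusted p = 0.0865). Uqcrb, which helps bind ubiquinone, read 9.77, 9.77 and 9.50 with SE housing and 9.40, 9.76 and 8.59 with EE housing, so that EE mouse 3 set most of its log2 fold change of -0.43 (unadjusted p = 0.164). Uqcrc2, a large structural subunit, lay at 9.00 to 9.05 in the SE mice and at 8.95 and 9.06 in EE mice 1 and 2, but at 8.47 in EE mouse 3 (unadjusted p = 0.276). Its partner Uqcrc1 had a log2 fold change of 0.02 (unadjusted p = 0.88). Uqcr11, a small accessory subunit, read 6.50, 6.65 and 6.73 with SE housing and 6.70, 6.74 and 7.24 with EE housing, where EE mouse 3 was the highest (0.27, unadjusted p = 0.164). The Rieske protein Uqcrfs1 and Uqcrq were under the minimum.

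Complex II links the chain to the citric acid cycle as succinate dehydrogenase, and all of its subunits are nuclear. Sdha, the flavoprotein that oxidizes succinate, read 8.18, 8.17 and 8.30 with SE housing and 8.13, 8.20 and 7.49 with EE housing. EE mice 1 and 2 lay among or just under the SE mice, and EE mouse 3 lay well below all the others. Its log2 fold change was -0.27 (unadjusted p = 0.211). Sdhc, a membrane anchor, had 0.07 (unadjusted p = 0.686). Sdhb, the iron-sulfur subunit, and Sdhd, the other anchor, were just under the minimum, with log2 fold changes of 0.04 and -0.01.

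Complex I is the largest complex, and its 15 members past the minimum had a median log2 fold change of 0.01. Ndufv1, the subunit that binds NADH and flavin, read 7.87, 7.91 and 7.92 with SE housing and 7.81, 7.82 and 7.68 with EE housing. The EE mice were all below the SE mice by a small margin, with a log2 fold change of -0.13 and a standard error of 0.118 (unadjusted p = 0.305). The other core subunits tested, Ndufv2, Ndufs7 and Ndufs8, which carry iron-sulfur clusters, had -0.08, 0.03 and 0.04. Ndufb9, an accessory subunit of the membrane arm, read 8.53, 8.40 and 7.63 with SE housing and 7.97, 7.88 and 7.87 with EE housing. Its SE mice lay on both sides of the EE mice, and its log2 fold change was -0.27 (unadjusted p = 0.273). Ndufa9, which sits near the ubiquinone site, read 6.72, 7.00 and 6.96 with SE housing and 6.96, 6.93 and 6.07 with EE housing. Its log2 fold change was -0.24 (unadjusted p = 0.358) and turned to 0.05 without EE mouse 3. The other accessory subunits tested, Ndufa3, Ndufa6, Ndufa8, Ndufa10, Ndufa11, Ndufa12, Ndufa13, Ndufc2 and Ndufs4, had values from -0.16 (Ndufa12) to 0.11 (Ndufa6).

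The 17 complex I members under the minimum held the only values of the 87 that passed the unadjusted threshold as higher in EE. In the fit with no minimum, Ndufc1, an accessory subunit of the membrane arm, read 5.27, 5.40 and 5.41 with SE housing and 5.75, 5.73 and 5.63 with EE housing, a log2 fold change of 0.34 (unadjusted p = 0.0138). Ndufv3, an accessory subunit of the NADH-binding module, read 6.28, 6.26 and 6.19 with SE housing and 6.47, 6.52 and 6.57 with EE housing, a log2 fold change of 0.27 (unadjusted p = 0.0312). In both the EE mice lay above every SE mouse, and both were singled out after their values were seen. Over all 87 genes that fit had 2 higher and 2 lower (Atp5h and Atp5b) at an unadjusted p under 0.05, or 2.3% each way, against 1.59% and 1.73% of all probe sets. The adjusted p of every member was above 0.99 in it. The 46 genes under the minimum had a median log2 fold change of 0.01, with 21 below 0. Of the assembly and supercomplex factors, Ndufaf3, which helps build the ubiquinone module of complex I, was the one past the minimum (0.05, unadjusted p = 0.744), and the other 8 were under it.

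**Figure D3:**
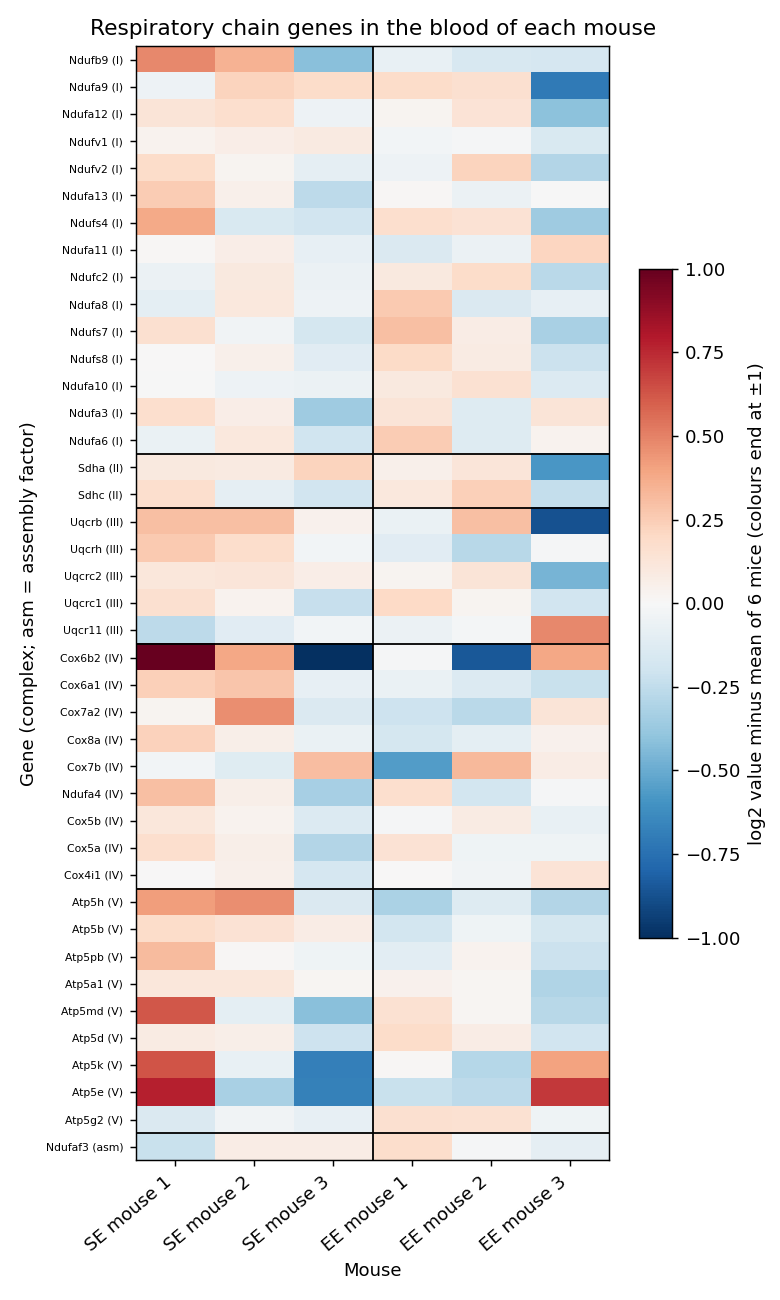
Deviation of the log2 value from the gene's own mean over the 6 mice, for the 41 genes tested (rows, grouped by complex and ordered by log2 fold change) in each mouse (columns). Red is above and blue below the gene's mean. The strongest colours follow single mice (1 and 3 of the SE group, 3 of the EE group), and no complex has a block of colour shared by the 3 EE mice.

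The differences between mice had a pattern of their own, which did not follow the housing. Each gene's log2 value was set against its SE mean, and the median of these differences over the 41 genes was taken as a score for each mouse. It was 0.09, 0.05 and -0.14 in SE mice 1, 2 and 3 and 0.00, -0.02 and -0.16 in EE mice 1, 2 and 3. The score was lowest in SE mouse 3 and EE mouse 3, at nearly the same value, so the groups overlapped. Over all probe sets tested the same score was 0.02, 0.01 and -0.02 with SE housing and 0.07, 0.04 and -0.18 with EE housing. The low score of EE mouse 3 was thus shared by all probe sets, whereas that of SE mouse 3 was not.

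EE mouse 3 marked the complexes unevenly. It was the lowest of the 6 mice for 16 of the 41 genes (39.0%), against 50.1% of all probe sets. These included 9 of 15 in complex I, with all 4 of its core subunits that were tested, and both tested genes of complex II. In complex IV it was the lowest for 1 of 9, in complex V for 2 of 9 and in complex III for 2 of 5. The score of EE mouse 3 was -0.22 for complex I, -0.46 for complex II, -0.18 for complex III, -0.02 for complex IV and -0.31 for complex V. The citric acid cycle enzymes, which work in the matrix beside complex II, had -0.34 in that mouse, with 7 of 9 lowest in it, and between -0.02 and 0.10 in the other mice. B cell markers had -0.93 in it and T cell markers -0.36, with all 12 B cell markers lowest in it (summed linear level 7882, against 11239 to 15457 in SE mice). Monocyte markers went the other way, with a score of 0.58 in that mouse and 7 of 8 highest in it. The part of these cells in the low values was not tested. Without EE mouse 3 the median log2 fold change of the 41 genes was 0.00, and that of all probe sets was 0.06.

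A second pattern ran inside the SE group. Of the 41 genes 10 (24.4%) were highest in SE mouse 1 and lowest in SE mouse 3 of all 6 mice, which held for 4.73% of all probe sets. They were Ndufa3, Ndufa13 and Ndufb9 of complex I, Cox5a, Cox5b, Cox6b2 and Ndufa4 of complex IV, and Atp5e, Atp5k and Atp5md of complex V. These were accessory subunits apart from Atp5e, a core subunit, and Cox6b2, a tissue isoform. The wide ranges lay here as well, since 4 of these 10 (Cox6b2, Atp5e, Atp5k and Atp5md) and Uqcrb were the 5 members that spanned more than 1 log2 unit over the mice. These were 12.2% of the members, against 12.7% of all probe sets. Platelet markers were ordered alike within the SE group, with scores of 0.47, -0.01 and -0.50 in SE mice 1, 2 and 3, and were at 0.10, 0.08 and 0.56 in the EE mice. Of the 12 platelet markers 5 were highest in SE mouse 1 and lowest in SE mouse 3, and their summed linear level was 19657 to 30300 in SE mice and 27115 to 32632 in EE mice. The order among SE mice was the same for neutrophil (0.25, 0.02 and -0.27), red cell (0.22, -0.08 and -0.15) and monocyte markers (0.13, 0.08 and -0.16), and B cell markers the reverse at its ends (-0.32, 0.12 and 0.17). The part of these cells in the SE pattern was not tested.

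**Figure D4:**
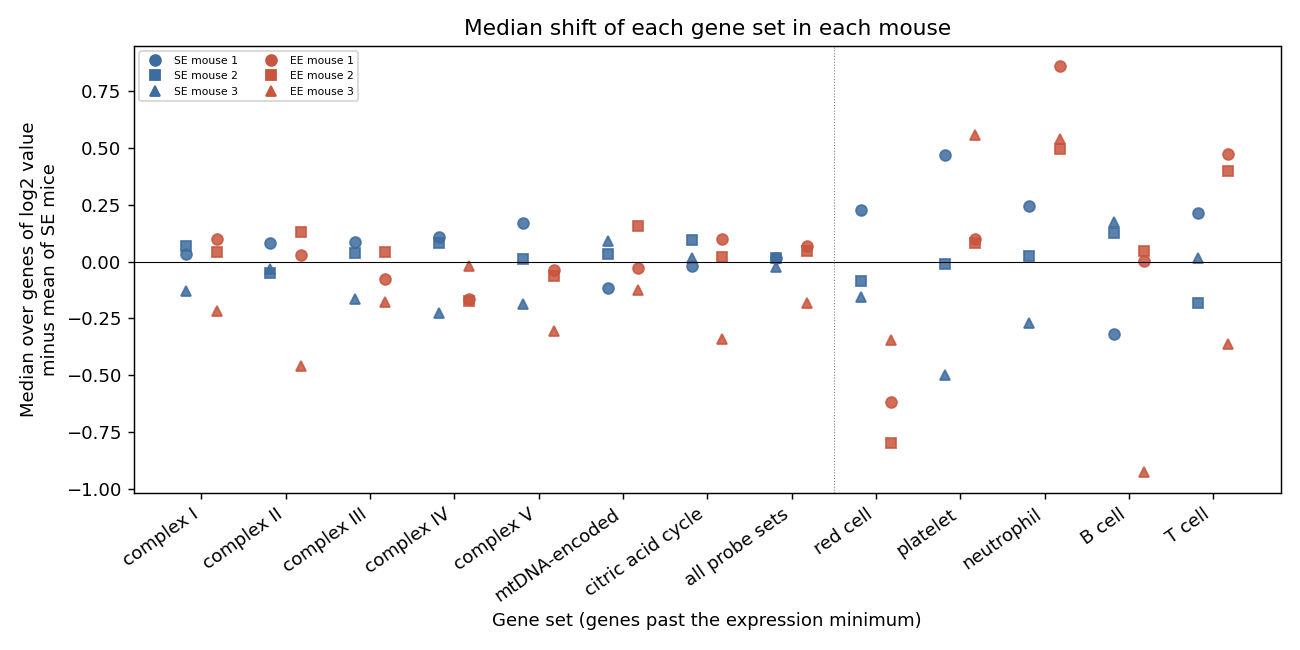
Median difference from the SE mean, in log2 units, over the genes of each set (y axis), for the 5 complexes and other sets, with a point for each SE (blue) and EE (red) mouse. The 5 complexes overlap between EE and SE, while the red cell markers (-0.35 to -0.80 in EE) and the neutrophil markers (0.49 to 0.86 in EE) separate.

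The spread within each group was set out by class of subunit. The SD was larger in EE than in SE for 10 of 11 core subunits, 11 of 28 accessory subunits and 4160 of all 6154 probe sets (67.6%). In complex IV it was larger in EE for 1 of 9. The median SD of core subunits was 0.0856 in SE mice and 0.209 in EE mice, and that of accessory subunits was 0.172 and 0.189. EE mouse 3 was the lowest mouse for 7 of the 11 core and 9 of the 28 accessory subunits, and lay a median of -0.33 and -0.08 log2 units from the mean of the other EE mice. These counts are descriptions, the genes of a mouse share its array, and the difference between the classes was not tested.

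The subunits encoded by mitochondrial DNA also gave no calls. Probe sets for 10 such genes were on the array under their own symbols (COX1, COX3, CYTB, ND1 to ND6 and ND4L), and all passed the minimum. The ID of the ND4L set falls among those of chromosome 1 genes, away from the rest, so it may read another locus. Their median log2 fold change was -0.02, with 0 lower and 0 higher at an unadjusted p under 0.05. COX1, the catalytic subunit of complex IV, read 13.23, 13.36 and 13.37 with SE housing and 13.26, 13.32 and 13.21 with EE housing. Of these genes 8 spanned at most 0.32 log2 units over the 6 mice. ND3 was low in EE mouse 3 (11.23, the others 11.80 to 12.32). ND6, which is read from the other strand of the mitochondrial genome than the rest, was the widest, lowest in EE mouse 1 and 1.68 log2 units higher in EE mouse 2 (9.68), with the remaining mice at 8.91 to 9.25. The scores of these genes were -0.11, 0.03 and 0.09 with SE housing and -0.03, 0.16 and -0.12 with EE housing. SE mouse 1 was thus the lowest SE mouse for mitochondrially encoded genes and the highest for the nuclear ones.

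Genes that work beside the chain gave few calls. Of 3 subunits and carriers outside the naming rule, Cycs, cytochrome c itself, read 8.19, 8.38 and 8.51 with SE housing and 8.10, 8.18 and 7.92 with EE housing (log2 fold change -0.29, unadjusted p = 0.0763). Every EE mouse was below every SE mouse for it, as in 5.75% of all probe sets. Cyc1, the haem subunit of complex III, had 0.09, and Atpif1, the inhibitor of ATP synthase, had -0.21 (unadjusted p = 0.193). Of 36 further assembly factors 11 passed the minimum, with a median of 0.05 and no calls. Of 9 citric acid cycle enzymes 1 was lower, against 3.14% of all probe sets. This was Ogdh, the E1 subunit of the oxoglutarate dehydrogenase complex, at 9.41, 9.46 and 9.45 with SE housing and 9.15, 9.23 and 9.05 with EE housing (-0.30, unadjusted p = 0.039). Of 8 import genes and 9 regulators of mitochondrial transcription 0 passed the unadjusted threshold, with medians of 0.00 and -0.08.

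Of 5 genes tested that act in autophagy or the removal of mitochondria, none of them particular to red cells, 2 were lower, against 3.14% of all probe sets. The others were Map1lc3b (log2 fold change 0.11), Ulk1 (0.08) and Gabarapl2 (-0.20). Pink1, the kinase that marks damaged mitochondria, read 8.32, 8.45 and 8.10 with SE housing and 7.77, 7.82 and 8.02 with EE housing (-0.42, unadjusted p = 0.0213). Sqstm1, an autophagy receptor, read 9.95, 10.09 and 9.45 with SE housing and 9.36, 9.08 and 9.36 with EE housing (-0.56, unadjusted p = 0.0193). In both every EE mouse was below every SE mouse, as in 5.75% of all probe sets, and the adjusted p was 0.930 for Pink1 and 0.908 for Sqstm1. Most red cell markers were lower in the same mice. The scores of that list were 0.22, -0.08 and -0.15 with SE housing and -0.62, -0.80 and -0.35 with EE housing. The part of red cells in the Pink1 and Sqstm1 values was not tested.

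A few chain genes have no value of their own here, because their probe sets are annotated to several genes. The Cox6c probe set shared with Gm6265 that had the higher mean read 11.83, 11.52 and 11.44 with SE housing and 11.37, 11.41 and 11.37 with EE housing (log2 fold change -0.21, unadjusted p = 0.175). The other such probe set, also past the minimum, had 0.06 (unadjusted p = 0.716). The Ndufs6 and Ndufs6b probe set past the minimum had a log2 fold change of -0.39 (unadjusted p = 0.157) and was lowest in EE mouse 3 at 6.77. The other was well under the minimum and had -0.59 (unadjusted p = 0.0334 in the limma fit with no minimum). Signal from the genes of such a pair cannot be told apart on these probe sets. Ndufb2, Ndufb4 and Uqcr10 were likewise shared and were under the minimum.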

How the data were processed

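Each of 6 arrays held whole blood RNA of 1 mouse (3 EE, 3 SE). The authors normalized the arrays by RMA with the R package affy and deposited log2 values for 41345 probe sets. RMA models the background, equalizes the arrays' distributions and summarizes the probes of a set, which takes out differences in total RNA and can shrink small folds. Per the labels' processing notes limma was used, with no version, and a genome build is not given in the sources used here, nor are scan dates. Arrays have no read depth, so their number is what limits the precision. The mice are separate animals, and p-values measure the spread between mice, not between enclosures. Housing was given by enclosure. Where mice of a group shared an enclosure, its effect cannot be told apart from that of housing.

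Genes were named from the array's probe annotation, in which 23521 probe sets have 1 symbol, 1820 have several (not used as members) and 16004 have none. All 87 members matched the GRCm38.p6 gene table. Probe sets lacking an Entrez ID, or whose mean fell under 6.64 (100 on the linear scale), did not enter the fit. The remaining 6154 were fitted with lmFit and eBayes of limma 3.58.1 (R 4.3.3), with no covariate and Benjamini-Hochberg adjustment. The code was tested on simulated data. The members, lists and tests were chosen with earlier results of these data known, and the lists came from textbook knowledge. The genes named are members below the unadjusted threshold of 0.05, the 3 of smallest p in each complex and among assembly factors, the Sdh genes, the subunit c genes and the isoforms of cytochrome c oxidase with their partners. From each other list at most 3 genes below that threshold are named. Any further gene was added after its values were seen. Alternatives covered the minimum, the Entrez filter, the scaling, the settings of limma, the mouse number as a block, several probe sets of a gene, the place of Ndufa4 and each mouse left out.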

Additional observations from a re-analysis of the deposited data

How the results depend on the processing

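Under most settings tried, 1 member was lower and 0 were higher, and under all of them 0 passed the study's thresholds or an adjusted p of 0.05. With no minimum, or with all probe sets of the table, 2 were lower and 2 higher, and with trend and robust eBayes 2 were lower. Array weights gave 5 lower and 2 higher (lowest adjusted p of a member 0.092, with 1120 of 6154 probe sets under the unadjusted threshold against 283), a complex III median of -0.048 and -0.030 for Cox4i1 in place of 0.07. Leaving out each mouse in turn gave 0 to 4 lower and 0 to 1 higher. Medians then ran from -0.149 to 0.013 for the members (lowest without SE mouse 3), -0.267 to -0.023 for complex III (highest without EE mouse 3), and -0.191 to 0.048 for complex IV and -0.233 to 0.0999 for complex V (both highest without SE mouse 1). Without EE mouse 3 the sign turned for 9 of the 41 members (Ndufa9, Ndufa11, Ndufa12, Ndufs4, Ndufv2, Cox5b, Atp5e, Atp5k and Atp5md). Among the members named by rule, the sign turned on leaving out a mouse for Ndufaf3 (-0.049 without SE mouse 1, -0.026 without EE mouse 1, up to 0.104), Cox6b2 (0.195 without SE mouse 1, 0.035 without EE mouse 2, down to -0.936 without SE mouse 3), Sdhc (-0.0049 without SE mouse 3, -0.031 without EE mouse 2, up to 0.209) and Ndufa9 (0.052 without EE mouse 3, down to -0.392). A plain t-statistic took Atp5h over the threshold (unadjusted p = 0.0733) and brought Atp5b under it. Beyond the mice left out, the causes were not tested.

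The labels name no shared batch, so the mouse number was not taken as a pairing in the main fit. The deviations of same-numbered mice correlated at -0.26, 0.05 and -0.31. Against each SE mouse, EE mice 1 and 2 gave nearly the same correlation and EE mouse 3 the opposite sign. These correlations therefore cannot tell whether the mice were paired. With the mouse number as a replicate block, 1 member was lower, 0 were higher and the median stayed at -0.03, with 217 probe sets under the unadjusted threshold. Medians of all probe sets ran from -0.08 to 0.06 over the settings. Levels near the minimum are close to background and bound no change.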
